A study of Homo sapiens with 6 samples.

Results

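The NF-κB transcription factors and the genes that switch them off were examined in MV4-11 cells, an established human AML cell line with monocytic features. The members were the rows of the deposited table whose symbol matched a list of 10 genes, and all 10 were found among the 20348 genes of the table. They comprise 5 subunits (*RELA*, *RELB*, *REL*, *NFKB1* and *NFKB2*), 3 IκB inhibitors (*NFKBIA*, *NFKBIB* and *NFKBIE*) and 2 further feedback genes (*TNFAIP3* and *BIRC3*). RNA-seq was made from 3 untreated samples (Ctrl) and from 3 samples treated with 1 μM WNK463, a compound that blocks the kinase activity of WNK proteins, and the series compared the groups after 48 h to look for the molecular changes behind the inhibition of AML cells by WNK463. No genetic change or other agent is given for either group, and the samples come from a single cell line, dose and time. The labels do not say whether the 3 samples of a group were separate cultures, so the p-values measure the spread between these samples, which may be technical.

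NF-κB proteins act as dimers that are held in the cytoplasm by IκB proteins until an IκB kinase marks the inhibitor for destruction. In the canonical branch the released dimers mostly contain the proteins of *RELA*, *REL* and *NFKB1*, whereas in the non-canonical branch the kinase encoded by *MAP3K14* leads to processing of the *NFKB2* precursor, whose product pairs with the *RELB* protein. Several genes of the system, among them *NFKBIA*, *TNFAIP3*, *BIRC3*, *NFKB2* and *RELB*, are known targets of NF-κB itself, so their transcripts form feedback loops. NF-κB is known in monocytic cells for driving cytokine, adhesion and survival genes.

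Because the members are known to include targets of the factor they encode, their promoters are shown first. RefSeq promoter windows of GRCh38.p14, which run from 250 bases before to 50 bases after a transcript start, were matched for 8 of the 10 genes, with 13 windows in all. *RELB* and *NFKBIE* were not matched. The windows were searched on both strands for the κB consensus GGGRNWYYCC, the site bound by NF-κB dimers. In it, R stands for A or G, Y for C or T, W for A or T, and N for any base. The search was settled on after the windows had been seen. The stretches below are 30 bases long, lie before the start, run 5′ to 3′ on the strand of the gene, and carry the match in capitals, read there on either strand. Matches that fit together within 30 bases share a line, with the bases between them also in capitals.
*REL*, chr2:60881518-60881547, plus strand: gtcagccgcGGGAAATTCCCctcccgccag
*NFKB1*, chr4:102501300-102501329, plus strand: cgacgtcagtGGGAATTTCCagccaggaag
*NFKB2*, chr10:102394462-102394491, plus strand: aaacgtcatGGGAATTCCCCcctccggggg
*NFKB2*, chr10:102394490-102394519, plus strand: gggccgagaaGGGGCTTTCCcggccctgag
*NFKB2*, chr10:102395519-102395548, plus strand: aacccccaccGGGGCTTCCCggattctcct
*NFKB2*, chr10:102395674-102395703, plus strand: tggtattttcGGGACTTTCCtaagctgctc
*NFKBIA*, chr14:35404811-35404840, minus strand: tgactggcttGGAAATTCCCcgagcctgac
*NFKBIB*, chr19:38899932-38899961, plus strand: ggcgtggtgGGGAATTTCCCgcagggcgga
*TNFAIP3*, chr6:137867188-137867217, plus strand: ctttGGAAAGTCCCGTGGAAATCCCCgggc
*BIRC3*, chr11:102317275-102317304, plus strand: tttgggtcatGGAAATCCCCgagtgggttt
*BIRC3*, chr11:102317339-102317368, plus strand: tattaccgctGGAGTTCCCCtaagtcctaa

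The consensus was found in 8 of the 13 windows against 5.91% of all 35116 promoter windows, and in 7 of the 8 genes, against 7.09% of all 27305 genes with a window. As the search was settled on after these windows had been seen, the shares describe the windows and test nothing. Among the other NF-κB target genes described below, 12 of 42 windows held it. *RELA* had 0 matches in both of its windows, which says only that these letters were not in them. Matches lay from 11 to 189 bases before the start, nearest in an *NFKB2* window and farthest in *BIRC3*. *NFKB2* had 6 matches in 2 of its 3 windows, some of them overlapping. The stretches of *NFKBIA* and *BIRC3* and 1 stretch of *NFKB2* held no exon of the GENCODE 29 annotation, whereas the others overlapped annotated exons. A match is a sequence feature and not a measured binding site.

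Total counts per sample ranged from 14915745 to 17411780, and 11973 genes passed the filter on low counts, among them all 10 members. The counts of the members summed to between 5208 and 8109 per sample. Levels are given as counts per 1000000 of the TMM-normalized library (CPM), and fold changes and adjusted p-values come from edgeR's quasi-likelihood test with Benjamini-Hochberg adjustment over all genes tested. The 9 leukemic myeloid markers examined, which include *PTPRC*, *SPI1* and *FLT3*, were all above the filter. Of these 9, 4 were higher and 4 lower after WNK463, against 35.5% and 35.3% of all genes tested. The sum of the 9 went from 2262–2400 CPM in Ctrl to 1413–1430 CPM with WNK463. *LYZ*, which encodes lysozyme, went from 1355 to 291 CPM, a log2 fold change of -2.22. This fall was larger than that of the sum, so the other markers of this list together did not fall. *MPO*, a granule enzyme, had a log2 fold change of -2.50, against 1.20 for *PTPRC* and 0.97 for *CSF1R*. The erythroid and epithelial markers were at 0 and the T cell markers summed to at most 0.0638 CPM in any sample. Of 8 macrophage genes, 5 were tested and 4 were higher after WNK463, against 35.5% of all genes tested. Of these 4, *C1QB*, *C1QC* and *APOE* had fewer than 10 counts in each Ctrl sample. These 3 passed the filter only through the WNK463 samples, so the filter itself favoured their being called higher. *C1QA* had 24, 4 and 20 counts in Ctrl and 216, 245 and 188 with WNK463, a log2 fold change of 3.69. Its mean went from 0.985 to 13.1 CPM. *MARCO* did not pass (log2 fold change -0.27, adjusted p = 0.49, edgeR). The sum of all 8 went from 2.44–3.47 CPM in Ctrl to 20.4–21.1 CPM with WNK463. *MRC1* and *CD163*, defining markers of macrophages, had at most 1 count in any sample. The part of the changes in these marker lists in the results below was not tested. In bulk samples, fewer cells of a type and less RNA per cell cannot be told apart.

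After WNK463 treatment, 9 of the 10 genes were higher and 1, *RELA*, was lower at an adjusted p below 0.05. Among all genes tested, 35.5% were higher and 35.3% lower by this rule, 70.8% in all, so that a call alone was common in these data. When the log2 fold change also had to reach 1 in size, *BIRC3*, *RELB* and *NFKB2* were called higher and 0 members lower. The shares of all genes were 9.62% and 5.55%, 15.2% together. The median log2 fold change was 0.60 over the members and 0.02 over all genes tested. The calls and the median include *BIRC3*, which had 5 or 6 counts per Ctrl sample and passed the filter only through the WNK463 samples. The filter itself thus favoured its being called higher. A stricter filter that dropped genes with under 10 counts in any sample removed *BIRC3*. Of the 9 members left, 8 were higher and 1 lower, against 3995 and 3981 of all 11150 genes tested. *RELB* and *NFKB2* then had log2 fold changes of 2.17 and 1.31. For every member the 3 WNK463 values lay outside the range of the 3 Ctrl values, as in 73.5% of all genes tested, 37.1% with the WNK463 values higher and 36.4% with them lower. An exact two-sided permutation test of one gene cannot give a p below 0.1 with 3 samples against 3.

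**Figure D1:**
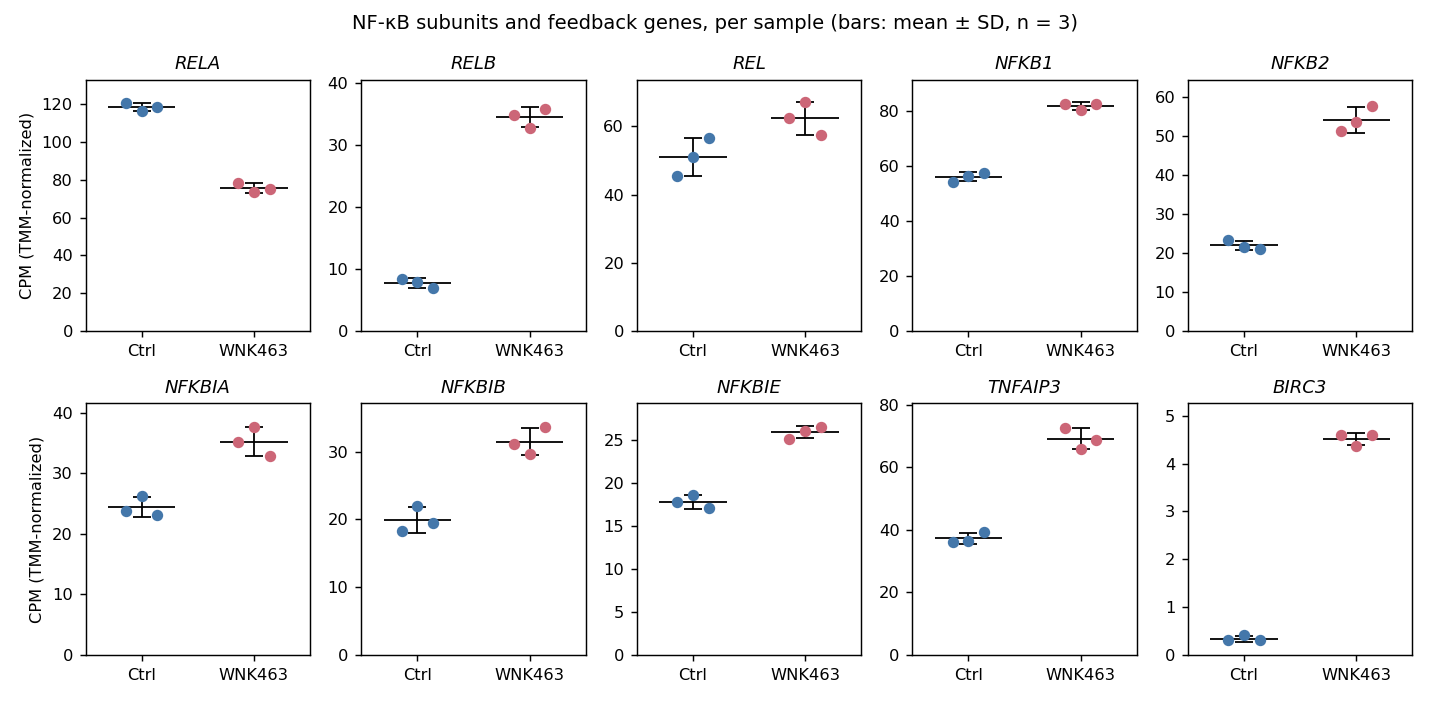
TMM-normalized CPM of the 10 genes in each Ctrl and WNK463 sample, with each vertical axis starting at 0, points for samples, and bars for the mean ± SD (n = 3). *RELA* fell from 118 to 75.6 CPM on average, and the other 9 genes lay higher with WNK463, with the narrowest gap for *REL*.

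Among the subunits, *RELB* (ENSG00000104856, chromosome 19 from 45001430 to 45038198) changed most. Its protein is the transactivating partner of the non-canonical branch. The level of *RELB* was 8.40, 7.89 and 6.89 CPM in the Ctrl samples and 34.9, 32.8 and 35.8 CPM in the WNK463 samples. Every WNK463 sample was thus far above the highest Ctrl sample. The means were 7.73 ± 0.768 and 34.5 ± 1.55 CPM (SD, n = 3 each), a 4.46-fold rise and a log2 fold change of 2.16 ± 0.10 (SE, adjusted p = 2.2e-12, edgeR). Of all genes tested, 97.6% had a lower log2 fold change than *RELB*.

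*NFKB2* (ENSG00000077150, chromosome 10 from 102394110 to 102402529) encodes the precursor that is processed in the same branch. It had 23.4, 21.6 and 21.2 CPM in Ctrl and 51.3, 53.6 and 57.9 CPM with WNK463, so the lowest treated sample was well above the highest control. The log2 fold change was 1.30 ± 0.07 (SE, adjusted p = 5.3e-11, edgeR), a 2.46-fold rise. Its canonical counterpart *NFKB1* (ENSG00000109320, chromosome 4 from 102501329 to 102617302) had 54.4, 56.6 and 57.6 CPM in Ctrl and 82.9, 80.5 and 82.7 CPM with WNK463. The samples of each group lay close together, and the rise of *NFKB1* was smaller than that of *NFKB2* in size, with a log2 fold change of 0.55 ± 0.06 (SE, adjusted p = 9.5e-08, edgeR). A lower log2 fold change than that of *NFKB1* was found in 80.0% of all genes tested, and than that of *NFKB2* in 93.5%.

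*RELA* (ENSG00000173039, chromosome 11 from 65653596 to 65663094), the main transactivating subunit of the canonical branch, went the other way. It had 121, 116 and 118 CPM in Ctrl and 78.3, 73.6 and 75.01 CPM with WNK463, with all treated samples below all controls. The log2 fold change was -0.65 ± 0.05 (SE, adjusted p = 4.5e-09, edgeR), and 13.0% of all genes tested had a lower one. *RELA* remained below Ctrl in each scaling tried, although scaling by total counts brought its log2 fold change to -0.49.

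*REL* (ENSG00000162924, chromosome 2 from 60881521 to 60931610) encodes the other canonical transactivating subunit, best known from lymphoid and myeloid cells. It had 45.5, 51.1 and 56.5 CPM in Ctrl and 62.4, 67.1 and 57.5 CPM with WNK463, so that the highest control and the lowest treated sample nearly met. Its log2 fold change of 0.29 ± 0.08 (SE, adjusted p = 0.0029, edgeR) was the smallest in size among the members. It exceeded that of 67.8% of all genes tested. Leaving out one sample in turn kept it between 0.21 and 0.36. With total counts the log2 fold change of *REL* was 0.44. GENCODE 29 places 5702 bases of an overlapping non-coding gene in the exons of *REL* on the same strand, a gene that has no row of its own in the deposited table.

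Levels of different genes were compared in TPM, which is scaled by transcript length. In Ctrl, *RELA* was the highest of the 10 genes at 88.4 ± 0.374 TPM, followed by *NFKBIA* at 29.2 ± 2.13, *NFKBIB* at 28.8 ± 3.49 and *NFKB1* at 27.1 ± 0.813 TPM (SD, n = 3 each). The sample ranges of *NFKBIA* and *NFKBIB* overlapped, as did those of *NFKBIB* and *NFKB1*, and all other neighbours in the order were separate. Lower in the Ctrl order came *NFKBIE*, *TNFAIP3*, *NFKB2* and *REL*, then *RELB* at 6.85 ± 0.287 TPM and last *BIRC3* at 0.188 ± 0.116 TPM. With WNK463, *RELA* was still first at 64.5 ± 2.04 TPM, but *NFKB2* at 37.2 ± 2.04 and *RELB* at 34.4 ± 1.58 TPM now ranked 5 and 6, with overlapping ranges, and *TNFAIP3* overlapped *RELB*. *NFKBIE* and *REL* came below them, and *BIRC3* stayed last at 2.10 ± 0.643 TPM.

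The make-up of the subunit transcripts differed between the groups. *RELA* made up 61.9%, 61.2% and 60.9% of the summed TPM of the 5 subunits in the Ctrl samples and 34.2%, 33.1% and 32.5% with WNK463. The share of *RELB* was 4.88%, 4.91% and 4.48% in Ctrl and 17.9%, 17.1% and 18.2% with WNK463, and that of *NFKB2* was 9.51%, 8.82% and 8.69% in Ctrl and 17.97%, 19.4% and 20.1% with WNK463. The groups did not overlap for any of these 3 genes. *NFKB1* went from 18.8% ± 0.433 to 23.6% ± 0.0819, while *REL* held 6.07% ± 0.762 and 6.35% ± 0.517 (SD, n = 3 each), a difference smaller than the spread between samples. The ratio of *RELB* to *RELA*, in TPM, was 0.0775 ± 0.00349 in Ctrl and 0.533 ± 0.0238 with WNK463. The ratio of *NFKB2* to *NFKB1* was 0.480 ± 0.0349 and 0.813 ± 0.0454. Summed over *RELA*, *RELB* and *REL*, the genes with a transactivation domain, the level was 104 ± 1.07 TPM in Ctrl and 111 ± 2.95 TPM with WNK463. This difference was smaller than the shift of all genes in limma on log2(TPM + 1), a median log2 fold change of 0.16. That median is taken over single genes and the sums are plain TPM, so the measures are not alike. *NFKB1* and *NFKB2* together went from 40.1 ± 0.282 to 82.9 ± 2.08 TPM. The other TPM sums given here are to be read beside that shift too. These sums and shares are transcript levels, and protein or processing was not measured in these data.

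**Figure D2:**
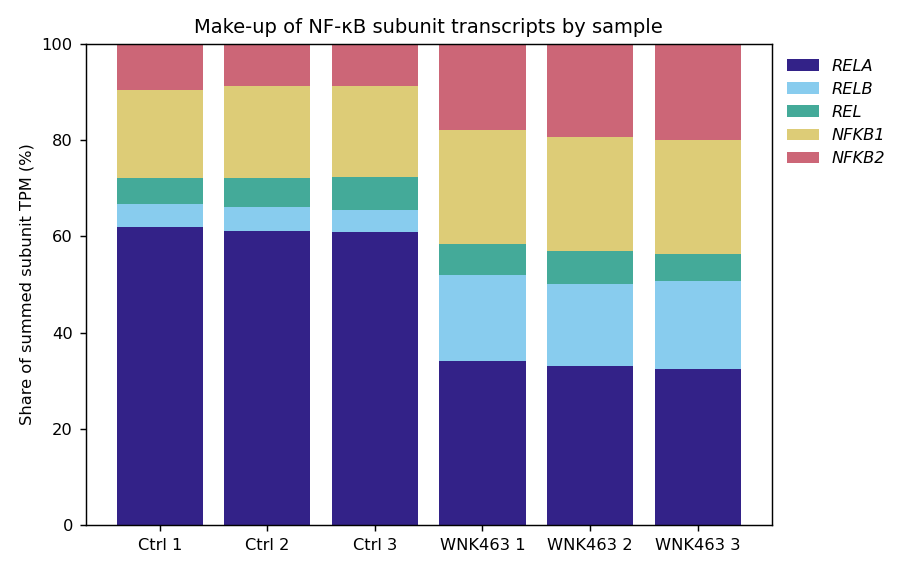
Share of each subunit in the summed TPM of the 5 NF-κB subunits, in percent, as 1 stacked bar per sample. The *RELA* share is 60.9% to 61.9% in the Ctrl samples and 32.5% to 34.2% in the WNK463 samples, while the *RELB* and *NFKB2* shares are larger with WNK463.

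All 3 IκB inhibitors rose, by log2 fold changes from 0.53 to 0.66, where 35.5% of all genes tested were called higher. A lower log2 fold change than that of *NFKBIA*, *NFKBIE* and *NFKBIB* was found in 79.5%, 79.9% and 83.5% of all genes tested. *NFKBIA* (ENSG00000100906, chromosome 14 from 35401511 to 35404749), the inhibitor that restrains *RELA* dimers and is resynthesized after activation, had 23.8, 26.3 and 23.2 CPM in Ctrl and 35.1, 37.7 and 32.9 CPM with WNK463. The groups were separate, with a log2 fold change of 0.53 ± 0.08 (SE, adjusted p = 1.2e-05, edgeR).

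*NFKBIB* (ENSG00000104825, chromosome 19 from 38899700 to 38908893), a more slowly degraded inhibitor, had 18.3, 21.9 and 19.5 CPM in Ctrl and 31.1, 29.7 and 33.6 CPM with WNK463. Its log2 fold change was 0.66 ± 0.09 (SE, adjusted p = 2.5e-06, edgeR). The exons of *NFKBIB* share 40 bases with *SIRT2* on the other strand, and whether reads were counted by strand is not given in the sources used here. Exons of *TNFAIP3* and *RELA* share 95 and 9 bases with non-coding genes on the other strand. *NFKBIE* (ENSG00000146232, chromosome 6 from 44258166 to 44265788), another inducible inhibitor, had 17.8, 18.7 and 17.1 CPM in Ctrl and 25.2, 26.1 and 26.6 CPM with WNK463. The treated samples were all above the controls, with a log2 fold change of 0.54 ± 0.08 (SE, adjusted p = 1.4e-05, edgeR). Summed over the 3 inhibitors, the level was 75.3 ± 6.01 TPM in Ctrl and 125 ± 1.32 TPM with WNK463 (SD, n = 3 each). Relative to the summed subunits this was a TPM ratio of 0.499, 0.572 and 0.497 in the Ctrl samples and 0.634, 0.659 and 0.646 in the WNK463 samples, with no overlap. The ratio of *NFKBIA* to *RELA* was 0.330 ± 0.0255 in Ctrl and 0.751 ± 0.0605 with WNK463.

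*TNFAIP3* (ENSG00000118503, chromosome 6 from 137867188 to 137883312) encodes a ubiquitin-editing enzyme that shuts off signalling upstream of the IκB kinase. It had 36.2, 36.4 and 39.4 CPM in Ctrl and 72.7, 66.0 and 68.8 CPM with WNK463, so that the lowest treated sample was far above the highest control. The log2 fold change was 0.89 ± 0.06 (SE, adjusted p = 1.1e-09, edgeR), a 1.85-fold rise.

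*BIRC3* (ENSG00000023445, chromosome 11 from 102317450 to 102339403) encodes a ubiquitin ligase of the inhibitor of apoptosis family that acts at TNF receptors and, with TRAF proteins, keeps the *MAP3K14* kinase low. It had 5, 6 and 5 counts in the Ctrl samples and 76, 75 and 72 counts in the WNK463 samples. As CPM, these were 0.304, 0.412 and 0.305 in Ctrl and 4.59, 4.36 and 4.60 with WNK463, the largest fold change of the members from the lowest level. The log2 fold change was 3.71 ± 0.31 (SE, adjusted p = 6.9e-09, edgeR), and its standard error was the widest of the 10 genes. *BIRC3* passed the filter on low counts only through the WNK463 samples. On the log2(TPM + 1) scale its log2 fold change was 1.37, since the pseudocount exceeds its level in Ctrl.

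**Figure D3:**
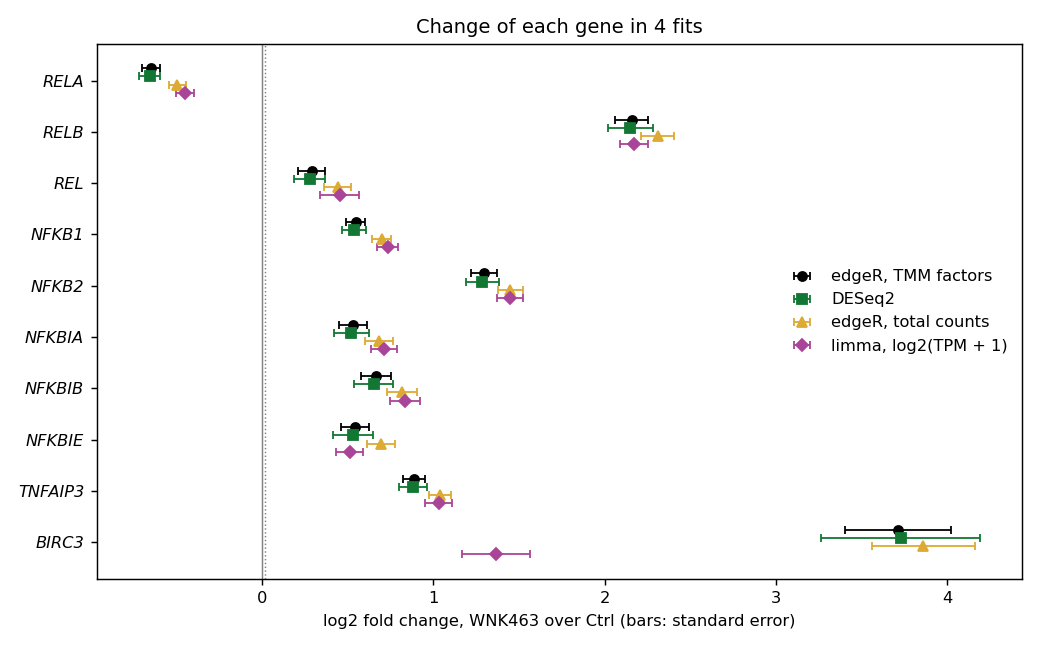
Log2 fold change of each gene, WNK463 over Ctrl, with standard errors, from edgeR with TMM factors, DESeq2, edgeR with total counts, and limma on log2(TPM + 1). The dotted line marks the median of all genes tested in the fit with TMM factors (0.02). This median was 0.08 with DESeq2, 0.17 with total counts and 0.16 with limma. *RELA* is left of 0 in all 4 fits while the other genes are right of it.

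The kinases, adaptors and ubiquitin ligases that carry signals to the IκB kinase were called in both directions. Of 23 listed genes, 22 were tested, 8 were higher, 10 were lower and 4 (*CHUK*, *TAB2*, *TRADD* and *RNF31*) did not pass, with a median log2 fold change of -0.10. These counts lie near the shares of all genes tested, 35.5% higher and 35.3% lower. *IRAK1*, a kinase below Toll-like and interleukin receptors, fell from 334 ± 15.9 to 183 ± 3.38 CPM (SD, n = 3 each, log2 fold change -0.87, adjusted p = 3.5e-11 from edgeR), while the related kinase *IRAK4* rose, with a log2 fold change of 0.57. *TRAF2* and *TRAF3*, adaptors of the complex that marks the *MAP3K14* kinase for destruction, fell with log2 fold changes of -0.81 and -0.49. *BIRC2*, the ligase of that complex and paralog of *BIRC3*, rose from 41.5 ± 4.88 to 71.9 ± 2.89 CPM, a log2 fold change of 0.79. *MAP3K14* itself, chosen after its values were seen, had 12.1, 9.05 and 8.84 CPM in Ctrl and 7.37, 6.98 and 6.51 CPM with WNK463. Its log2 fold change was -0.53 ± 0.15 (SE, adjusted p = 0.0038, edgeR), and it did not pass in any of the 3 fits with limma on TPM (adjusted p from 0.12 to 0.16). *IKBKG*, the regulatory subunit of the IκB kinase, fell with a log2 fold change of -0.45, while *MALT1* and *TAB3*, which act upstream of that kinase, rose with values of 0.32 and 0.33. On log2(TPM + 1), limma gave smaller values for *TRAF3* (-0.28) and *IKBKG* (-0.21), which still passed. The balance of directions turned with the scaling, as it did over all genes. With total counts, 9 genes of this list were higher and 7 lower, against 5525 and 3123 of all 11973 genes tested. With limma on log2(TPM + 1), 10 were higher and 5 lower, against 4902 and 2643 of 11315.

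Other inhibitors and atypical IκB proteins gave 3 higher and 2 lower genes out of 11, all of them tested, with a median log2 fold change of 0.08. Both counts are below the 35.5% higher and 35.3% lower among all genes tested. *CYLD*, a deubiquitinase that opposes signalling to the IκB kinase, rose from 70.2 ± 2.95 to 160 ± 1.53 CPM (SD, n = 3 each, log2 fold change 1.19, adjusted p = 1.5e-12 from edgeR). *BCL3*, an atypical IκB protein that acts in the nucleus with the *NFKB1* and *NFKB2* products, had 2.74, 4.73 and 3.54 CPM in Ctrl and 12.1, 11.5 and 13.3 CPM with WNK463, a log2 fold change of 1.75. *NFKBIZ*, another nuclear IκB protein, had a log2 fold change of 1.06 from 1.44 ± 0.710 to 3.01 ± 0.538 CPM (adjusted p = 0.0074, edgeR). Without Ctrl replicate 3 the value for *NFKBIZ* was 0.70, with an adjusted p of 0.049 from edgeR. *TNIP1* and *TNIP2*, which bind the *TNFAIP3* protein, had log2 fold changes of -0.21 and -0.24 and did not pass with total counts (-0.05 and -0.09) or with limma. With total counts, 6 genes of the list were higher and 0 lower, against 5525 and 3123 of all 11973 genes tested. With limma on log2(TPM + 1), 3 were higher and 0 lower, against 4902 and 2643 of 11315.

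Of 34 other NF-κB target genes, 12 had too few counts to be tested, among them *IL6* at 0 counts in all samples. Of the 22 tested, 17 were higher and 0 lower, against 35.5% and 35.3% of all genes, and *CCL5*, *GADD45B*, *TRAF1*, *PTGS2* and *PLAU* did not pass. No member of this list was lower at an unadjusted p below 0.05 in edgeR, and none was called lower by DESeq2 or limma. The median log2 fold change was 0.46. Of these genes, *CCL3* and *EBI3* passed the filter only through the WNK463 samples, with fewer than 10 counts in each Ctrl sample. *IL1B*, an inflammatory cytokine, had 5.42, 6.04 and 5.73 CPM in Ctrl and 34.1, 35.1 and 34.9 CPM with WNK463. All treated samples were thus above all controls, with a log2 fold change of 2.60 ± 0.10 (SE, adjusted p = 1.8e-13, edgeR). *CXCL8*, a neutrophil chemokine, rose from 4.42 ± 0.263 to 18.1 ± 0.219 CPM, and *ICAM1*, a leukocyte adhesion molecule, from 28.3 ± 1.23 to 87.2 ± 2.30 CPM (SD, n = 3 each). *CFLAR*, which blocks caspase activation at death receptors, had a log2 fold change of 0.85, or 0.53 with limma on log2(TPM + 1). Past a log2 fold change of 1, as 9.62% of all genes were on the higher side, were *IL1B*, *ICAM1*, *CXCL8*, *EBI3* (3.67) and *CCL3* (2.59, or 1.69 with limma on log2(TPM + 1)), the last 2 of which were named after their values were seen. The targets are a list of known genes chosen with earlier results of these data known, and many of them are also controlled by other factors.

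**Figure D4:**
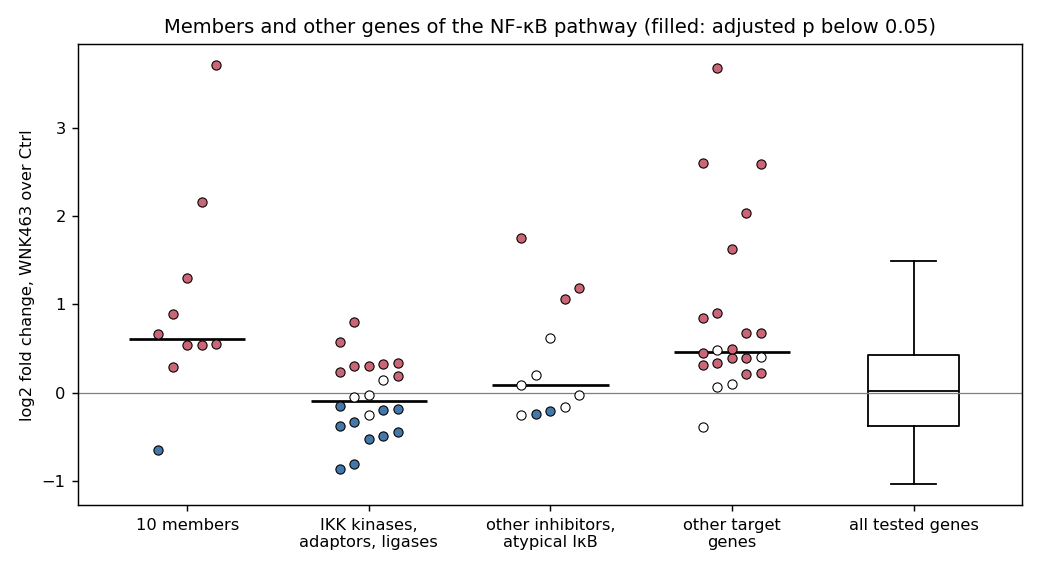
Log2 fold change, WNK463 over Ctrl, of the tested genes in each group, with filled points for an adjusted p below 0.05 (red higher, blue lower), lines for the median, and a box with whiskers from the 5th to the 95th percentile for all genes tested. The medians are 0.60 for the members, -0.10 for kinases, adaptors and ligases, 0.08 for other inhibitors, 0.46 for other targets and 0.02 for all genes.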

How the data were processed

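MV4-11 cells were sequenced after mRNA capture on an Illumina Novaseq X Plus, in 3 Ctrl and 3 WNK463 samples. Groups and replicate numbers came from the sample titles, and the dose and time from the series' design text. The authors deposited estimated counts per gene as whole numbers, without normalization, and TPM values, which sum to 1000000 per sample. Per the labels, the submitters' processing notes name GRCh38, fastp, Bowtie2, HISAT2, StringTie, RSEM, DESeq2 and edgeR, without versions or roles. The authors' mean TPM, log2 fold change (a log2 ratio), p-value and adjusted p-value (FDR) columns were deposited too and were not used.

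Counts were tested with edgeR 4.0.16 in R 4.3.3 (quasi-likelihood test with no block for replicates, TMM factors, low counts removed by filterByExpr), with an adjusted p threshold of 0.05. The normalization factors were 0.944 to 0.952 in Ctrl and 1.05 to 1.06 with WNK463. The standard error (SE) of each log2 fold change was taken as its size over the root of edgeR's F value. Counts of 0 stood beside a TPM above 0 in 62 values. Replicates of a group differed by more than sampling noise (chi-square per degree of freedom from 2.68 to 7.40). Alternatives used DESeq2 1.42.0 and limma 3.58.1. The scripts were first tested on simulated data.

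The members and the 3 pathway lists were chosen with earlier results of these data known. Beside the members, up to 4 genes per list and direction with the smallest p and groups that do not overlap were named. Gene positions and overlaps came from GENCODE 29 on GRCh38.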

Additional observations from a re-analysis of the deposited data

How the results depend on the processing

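Direction and significance at the 0.05 threshold were unchanged for all 10 members under the 15 alternatives run for each, or 14 for *BIRC3*, which a filter of at least 10 counts in every sample removes. The log2 fold changes ranged from -0.67 to -0.45 for *RELA*, 2.07 to 2.31 for *RELB*, 0.21 to 0.49 for *REL*, and 1.37 to 3.86 for *BIRC3*. With each sample left out, 9 members were higher and 1 lower in every fit. With a log2 fold change of at least 1 required, 3 members were higher and 0 lower. That limit left 0 higher and 0 lower kinases, adaptors and ligases, 0 lower inhibitors and 5 higher targets. With total counts, 6 other inhibitors were higher and 0 lower. With limma on log2(TPM + 1) or log2(TPM + 0.1), 5 kinases, adaptors and ligases and 0 inhibitors were lower, and 4 and 0 without a TPM filter. The median log2 fold change over all genes went from 0.02 to 0.17 with total counts, and the share of higher calls from 50.2% to 63.9%. The shares of higher calls with limma were 65.0%, 64.9% and 67.0%.

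The correlations of same-numbered samples' deviations from their group means were 0.01, 0.03 and -0.07, and the shared numbers were therefore treated as names. A fit with the replicate block called 9 members higher and 1 lower, with 8398 genes called in place of 8473. A fold limit gave 1817 calls. With counts divided by the GENCODE 29 exon length in place of TPM, chosen after seeing the data, the *RELA* share went from 51.6% to 25.1% and the *RELB* share from 6.06% to 20.6%. Depth limited *BIRC3* most, with at most 6 counts in a Ctrl sample.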
